A study of Mus musculus with 6 samples.

Results

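The genes described here encode enzymes that make, lengthen and desaturate fatty acids. They were chosen by name, as the rows whose Ensembl identifier carries the GENCODE M21 symbol Acly, Acaca, Fasn, Scd1, Scd2, Elovl5, Elovl6, Fads1, Fads2 or Fads3. These names and the gene lists used below were picked with earlier results of these data known. All 10 were found among the 43346 genes of the deposited table. The samples were cultures of primary mouse embryonic fibroblasts (MEFs) of strain C57BL/6, connective tissue cells grown out of embryos, used at passage 9. They received either 3 µM erastin or DMSO, the solvent, for 24 h, and each treatment gave 3 RNA sequencing libraries. Erastin blocks the cystine/glutamate antiporter and is used to bring on ferroptosis, an iron-dependent death through peroxidation of membrane lipids. The labels name no genetic change, and both groups share the strain, the passage and a medium with fetal bovine serum and the reducing agent 2-mercaptoethanol. Whether libraries of a group came from separate embryos or cultures is not stated. The p-values therefore measure the spread between these libraries, which may be technical.

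Fatty acids are built in the cytosol from acetyl-CoA. ATP citrate lyase (Acly) supplies acetyl-CoA from citrate, acetyl-CoA carboxylase (Acaca) turns it into malonyl-CoA, and fatty acid synthase (Fasn) assembles palmitate. The palmitate is lengthened in the endoplasmic reticulum by elongases of the ELOVL family and given a double bond by stearoyl-CoA desaturases (Scd1, Scd2). Dietary or serum polyunsaturated fatty acids are processed by Elovl5, Fads1 and Fads2 into the long, highly unsaturated chains whose peroxidation is the hallmark of ferroptosis. Most of these genes are known targets of the SREBP transcription factors, which also drive sterol synthesis.

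The treatment showed in each erastin library. Slc7a11, the antiporter subunit, stood at 11.5 to 16.1 CPM in the DMSO and 141 to 219 CPM in the erastin libraries, and the heme oxygenase gene Hmox1 went from 177 to 191 CPM up to 2101 to 3186 CPM. CPM are read counts relative to library size, scaled by TMM factors (trimmed mean of M-values). Total counts per library ran from 13333911 to 20509970, and 3 reads, taken as the smallest detectable level, were worth 0.146 to 0.225 CPM. The members were far above that, with 278 to 16085 reads in any library. The fibroblast markers Col1a1, Col1a2, Col3a1, Vim, Thy1, Pdgfra and Pdgfrb were all detected, and all 7 were lower with erastin. With Fn1 the 8 fibroblast markers summed to 35000 to 36900 CPM of total counts under DMSO and to 25200 to 27300 under erastin. Their median log2 fold change was -0.715, and 87.5% of them passed in edgeR (adjusted p-value under 0.05), all as lower. Of all genes tested 43.0% passed, 21.5% as lower and 21.6% as higher. Fn1 itself had a log2 fold change of 0.075 that did not pass, and was -0.028 without DMSO replicate 1. The fat cell markers Adipoq and Cidec had no read in any library. The 7 fat cell markers summed to 23.1 to 30.6 CPM under DMSO and 28.6 to 41.3 under erastin. Of the 3 that were tested, Pparg was higher (log2 change 0.94), while Fabp4 (-0.49) and Cebpa (0.13) did not pass. Macrophage markers summed to 21.2 to 40.3 and 27.5 to 56.9 CPM with 0 of 5 passing, and epithelial markers to 2.1 to 3.15 CPM under both treatments. Of the macrophage markers, Cd68 (1.06) and Lyz2 (0.71) were nearest to passing (adjusted p = 0.0548 and 0.0578 in edgeR). The other 3 had negative log2 changes. Endothelial markers summed to 2.11 to 4.72 and 7.56 to 10.1 CPM, with Kdr higher (1.38). Kdr was the only endothelial marker tested, as Pecam1 and Cdh5 had too few reads. In bulk RNA, fewer cells of a type and less RNA per cell cannot be told apart, and what part these marker differences have in the results below was not tested.

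After erastin, 8 of the 10 genes were lower, Fads3 was higher, and Elovl5 did not pass the test (edgeR quasi-likelihood test, adjusted p-value under 0.05 over all 14000 genes tested). Among all genes tested 43.0% passed, 21.5% as lower and 21.6% as higher. Because the 10 genes were chosen with earlier results of these data known, their count against this share is no test. All 10 members passed the filter on low counts. The median log2 fold change was -0.75 over the 10 genes, -0.715 over the 8 fibroblast markers and -0.0014 over all genes tested. The members' range ran from -1.73 (Fads2) to 0.38 (Fads3). The groups did not overlap for 9 of the 10 genes, against 52.5% of all genes tested. The counts of 8 lower and 1 higher were the same in each of the 17 alternatives run, among them the adjusted p-value under 0.01, DESeq2 and leaving out any 1 library.

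**Figure D1:**
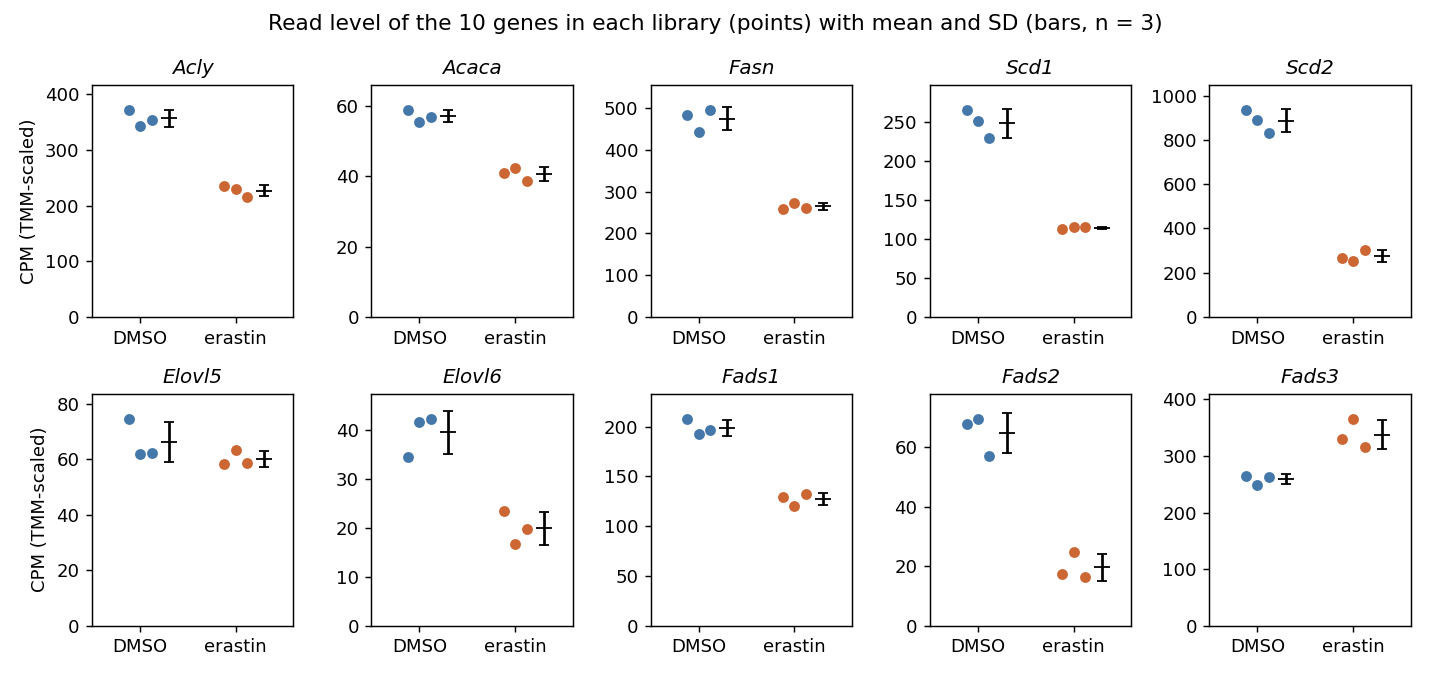
Expression of the 10 genes in each library, in TMM-scaled CPM on a linear axis that starts at 0 in every panel; points are libraries, bars show the mean and SD (n = 3). The 3 erastin libraries lie below all 3 DMSO libraries for 8 genes, and above them for Fads3; for Elovl5 erastin replicate 2 lies among the DMSO libraries and the other erastin libraries lie below them.

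The windows in front of 3 genes are shown because the genes went different ways and each window holds the CCAAT letters that the factor NF-Y binds. Fasn fell, Elovl5 did not pass and Fads3 rose. RefSeq gave windows for 7 of the 10 genes (build GRCm38.p6), and none for Scd1, Scd2 and Fads1. Each line holds the 150 bases before the RefSeq start, 5′ to 3′ on the gene's strand, with CCAAT and its reverse complement ATTGG in capitals. The lines lie at chr11:120824548-120824697 (minus strand, Fasn), chr9:77917215-77917364 (plus strand, Elovl5) and chr19:10041398-10041547 (plus strand, Fads3).
Fasn: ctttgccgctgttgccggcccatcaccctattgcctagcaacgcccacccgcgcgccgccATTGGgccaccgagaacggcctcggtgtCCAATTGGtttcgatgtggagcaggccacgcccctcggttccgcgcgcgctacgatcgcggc
Elovl5: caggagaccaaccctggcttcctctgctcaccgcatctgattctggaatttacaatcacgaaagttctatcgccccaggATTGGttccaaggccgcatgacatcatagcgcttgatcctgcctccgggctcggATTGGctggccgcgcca
Fads3: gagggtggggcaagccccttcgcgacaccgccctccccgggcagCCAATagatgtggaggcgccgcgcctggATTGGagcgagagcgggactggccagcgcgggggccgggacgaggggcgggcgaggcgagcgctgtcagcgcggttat

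Searched on both strands over 250 bases before the start, CCAAT was found in these 3 of 7 windows and in 33.8% of all 32851 RefSeq windows. In Fasn it began 90, 62 and 59 bases before the start, the last pair overlapping as CCAATTGG. In Elovl5 it began 71 and 17 bases before the start, and in Fads3 106 and 78. The SREBP element TCACNCCAC was in none of the 7 windows and in 1.05% of all windows, which says only that these letters are not there. The GC box GGGCGG was in the windows of Acly, Fads2 and Fads3 (32.7% of all windows), the E-box CACGTG in that of Elovl5 (6.02%) and the NRF2-type element TGACNNNGC in that of Fads3 (10.2%). The Fads2 window was not printed, because 243 of its 250 bases lie in GENCODE exons of the gene. The Acaca window lies 65766 bases inside the GENCODE gene, so it belongs to a start within the gene.

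The 3 enzymes that lead to palmitate were all lower with erastin. Acly (ENSMUSG00000020917.13; GRCm38 chr11:100476353-100528000, minus strand) had 372, 343 and 355 CPM in DMSO replicates 1, 2 and 3, and 235, 230 and 216 CPM in the erastin replicates. Every erastin library was below every DMSO library. The log2 fold change was -0.65 (SE 0.071, adjusted p = 3.4e-06 in edgeR). Acaca (ENSMUSG00000020532.14; chr11:84129672-84401651, plus strand), whose enzyme commits carbon to fatty acid synthesis, had 58.9, 55.4 and 56.8 CPM in DMSO and 40.8, 42.5 and 38.6 CPM in erastin libraries. Its groups were again apart, although antisense and other gene models overlap it and the strand setting of the counting is not known. It had the smallest fall of the 8 genes that were lower (log2 change -0.49 with SE 0.093, adjusted p = 0.000612 in edgeR). Fasn (ENSMUSG00000025153.8; chr11:120805846-120824547, minus strand) had 484, 443 and 496 CPM in DMSO and 259, 274 and 261 CPM in erastin libraries, a fall to 0.558 of the DMSO level (log2 change -0.84 with SE 0.070, adjusted p = 2.65e-07 in edgeR). The SD over erastin libraries was 7.93 CPM, against 27.6 CPM in DMSO.

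Both stearoyl-CoA desaturase genes were lower, with the larger log2 change for Scd2. These enzymes place a double bond in stearate and palmitate and so supply monounsaturated fatty acids; Scd1 is the main isoform in liver and fat, and Scd2 is widely expressed outside the liver. Scd2 (ENSMUSG00000025203.5; chr19:44293674-44306864, plus strand) was the member with the most reads in DMSO, at 937, 890 and 833 CPM. In erastin libraries it stood at 267, 254 and 304 CPM. That was a fall to 0.31 of the DMSO level (log2 change -1.69 with SE 0.079, adjusted p = 1.24e-09 in edgeR), and 3.29% of all genes tested had a lower log2 fold change. Scd1 (ENSMUSG00000037071.2; chr19:44394455-44407879, minus strand) had 265, 251 and 228 CPM in DMSO and 113, 115 and 115 CPM in erastin libraries. The erastin libraries differed little among themselves (SD 1.52 CPM), and the level was 0.46 of that in DMSO (log2 change -1.12 with SE 0.077, adjusted p = 4.27e-08 in edgeR). Scd3 and Scd4, the other members of this cluster on chromosome 19, had too few reads to be tested.

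The coding sequences of Scd1 and Scd2 agreed at 90.3% of 1065 aligned bases, and the longest stretch without a difference was 147 bases. Library fragments of 100 to 200 bp were selected, so reads from such stretches could fit either gene, and how the authors' counting treated them is not given in the sources used here. The coding part is a minor share of the Scd1 and Scd2 transcripts, whose longest annotated forms measure 4832 bases (Scd1) and 5455 bases (Scd2). The Fads genes were less alike, with 61.7% to 69.5% identity and identical stretches of at most 54 bases.

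The elongases split. Elovl6, which lengthens palmitate to stearate (ENSMUSG00000041220.6; chr3:129532355-129638495, plus strand), had 34.6, 41.7 and 42.4 CPM in DMSO and 23.4, 16.6 and 19.7 CPM in erastin libraries. Its groups did not overlap, an antisense gene model overlaps it, and the log2 fold change was -0.99 (SE 0.14, adjusted p = 5.19e-05 in edgeR). Elovl5, which lengthens polyunsaturated chains (ENSMUSG00000032349.9; chr9:77917364-77984519, plus strand), had 74.6, 61.8 and 62.2 CPM in DMSO and 58.4, 63.3 and 58.6 CPM in erastin libraries. DMSO replicate 1 was high, erastin replicate 2 lay among the DMSO libraries, and erastin replicates 1 and 3 lay below all of them. The log2 fold change of -0.14 did not pass (SE 0.098, 95% interval -0.348 to 0.069, edgeR adjusted p = 0.269), and the interval leaves room for a fall of up to 0.35 or a rise of up to 0.069. Elovl5 passed in none of its 16 alternatives, with adjusted p-values of 0.0896 to 0.748.

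The FADS genes moved in opposite directions. Fads2 encodes the desaturase that acts on linoleic and alpha-linolenic acid at the start of the polyunsaturated pathway (ENSMUSG00000024665.7; chr19:10062765-10101746, minus strand). It had 67.9, 69.8 and 57.2 CPM in DMSO and 17.5, 24.9 and 16.5 CPM in erastin libraries. The fall to 0.301 of the DMSO level was the largest among the 10 genes by its point estimate (log2 change -1.73 with SE 0.14, adjusted p = 2.82e-07 in edgeR), close to that of Scd2, and the 95% intervals of these genes overlap (-2.04 to -1.42 and -1.86 to -1.52). After the offset for GC content and length the order turned, with Scd2 at -1.76 and Fads2 at -1.66. It also turned without erastin replicate 3 (-1.76 for Scd2 and -1.62 for Fads2) and without erastin replicate 1 (-1.67 and -1.66). Fads1, the desaturase of the later step that yields arachidonic acid (ENSMUSG00000010663.4; chr19:10182888-10196877, plus strand), had 208, 193 and 196 CPM in DMSO and 129, 121 and 133 CPM in erastin libraries. Its groups were apart by a smaller step (log2 change -0.64 with SE 0.075, adjusted p = 7.59e-06 in edgeR). Fads3, which has been linked to desaturation of sphingoid bases (ENSMUSG00000024664.4; chr19:10041569-10060110, plus strand), had 265, 249 and 264 CPM in DMSO and 330, 366 and 316 CPM in erastin libraries. All erastin libraries were above all DMSO libraries, and the level was 1.3 times that in DMSO (log2 change 0.38 with SE 0.075, adjusted p = 0.000786 in edgeR). Fads3 and Fads2 are neighbours that are transcribed towards each other.

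**Figure D2:**
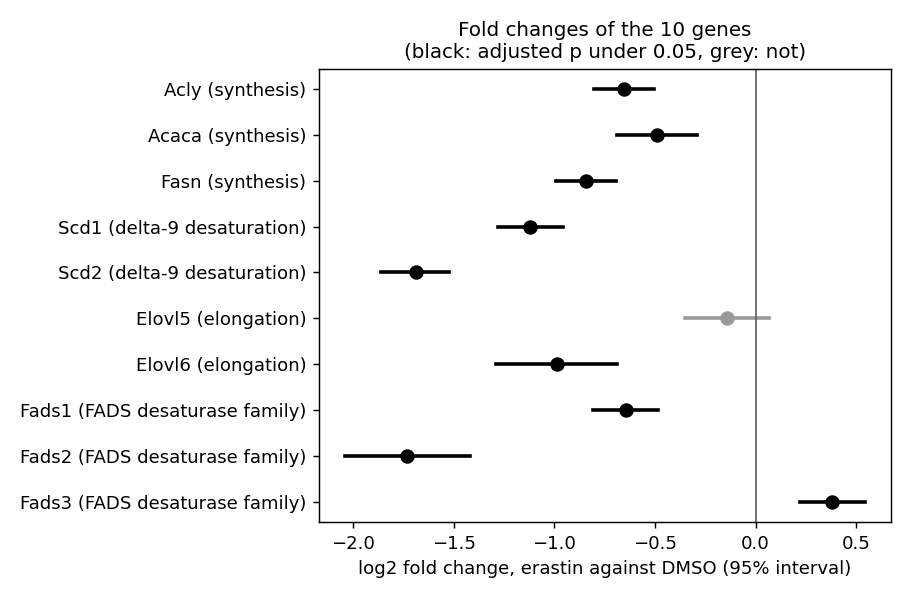
Log2 fold change of each gene, erastin against DMSO, with its 95% interval from the edgeR fit (6 libraries); black marks an adjusted p-value under 0.05, grey none. The intervals of Scd2 and Fads2 lie below -1.4, that of Elovl5 spans 0, and that of Fads3 lies above 0.

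Related genes were also compared within each library, as the ratio of their read counts, which needs no scaling factor. In each of the 5 ratios the groups did not overlap. How often ratios of other genes do so was not looked at, and the ratios rest on the same counts as the fold changes above. The exact two-sided permutation p was 0.1 for each, the smallest that 3 against 3 libraries allow, and 0.1 after adjustment over the 5 ratios, so none of these differences could pass a threshold of 0.05. The log2 ratio of Scd2 to Scd1 was 1.82, 1.83 and 1.87 in DMSO and 1.25, 1.15 and 1.40 in erastin libraries. Scd2 thus made up 77.9% to 78.5% of the reads of both genes under DMSO and 68.9% to 72.5% under erastin. The log2 ratio of Fads2 to Fads3 went from a mean of -2.00 ± 0.19 to -4.13 ± 0.22 (SD, n = 3 each), a 4.36-fold shift. That of Fads1 to Fads2 went from 1.62 ± 0.16 to 2.72 ± 0.39, with erastin replicate 2 (2.28) nearest to the DMSO libraries. That of Elovl6 to Elovl5 went from -0.74 ± 0.32 to -1.61 ± 0.31, where DMSO replicate 1 (-1.11) lay closest to the erastin libraries. Fasn to Acaca had the smallest shift, from 3.05 ± 0.064 to 2.70 ± 0.045.

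**Figure D3:**
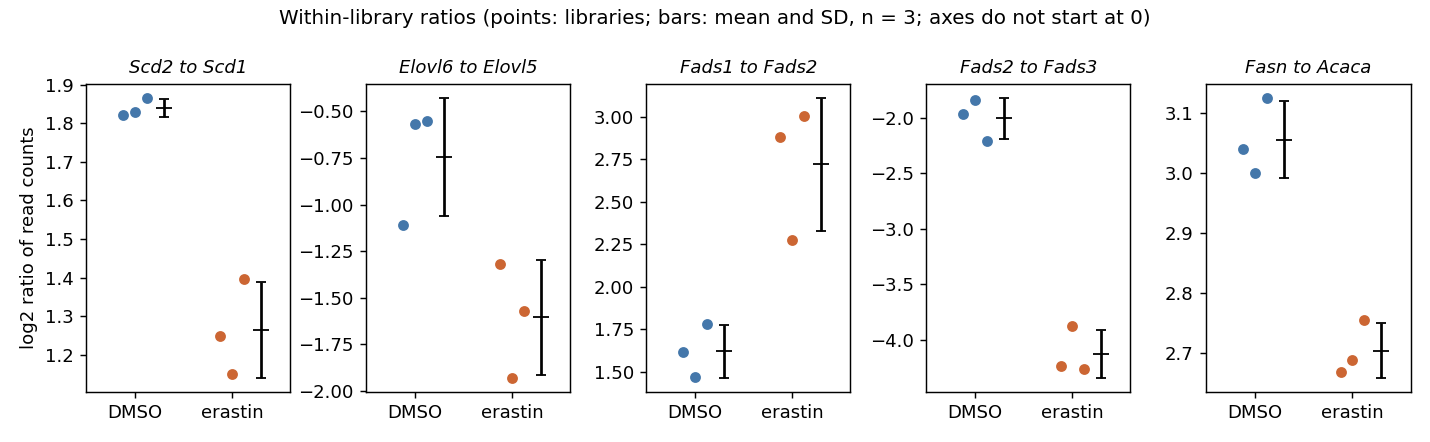
Log2 ratio of the read counts of 2 related genes in the same library, for 5 pairs; points are libraries, bars show the mean and SD (n = 3), and the axes do not start at 0. DMSO and erastin libraries are apart in every panel, with the widest shift for Fads2 to Fads3 (-2.13) and the narrowest for Fasn to Acaca (-0.351).

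Levels of different genes were compared per length, as CPM per kb of the longest annotated transcript. In DMSO the order was Scd2 (163 ± 9.57), Acly (80.6 ± 3.29), Fads3 (70.3 ± 2.36), Fads1 (57.5 ± 2.32), Scd1 (51.3 ± 3.83), Fasn (47.2 ± 2.75), Elovl5 (23.8 ± 2.62), Fads2 (20.6 ± 2.15), Elovl6 (6.65 ± 0.729) and Acaca (6.00 ± 0.182), all SD with n = 3. Libraries overlapped between Scd1 and Fasn and between Elovl6 and Acaca; the other neighbours in this order were apart. In erastin libraries Fads3 came to the top at 91.6 ± 6.96 CPM per kb, and Scd2 stood at 50.4 ± 4.73, overlapping with Acly at 51.2 ± 2.26. Fads1 followed at 36.8 ± 1.76, Fasn at 26.3 ± 0.789, Scd1 at 23.6 ± 0.315, Elovl5 at 21.6 ± 1.01, Fads2 at 6.23 ± 1.47, Acaca at 4.27 ± 0.204 and Elovl6 at 3.35 ± 0.569. Scd2 was thus first in DMSO and Fads3 first in erastin libraries, each above all others without overlap.

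**Figure D4:**
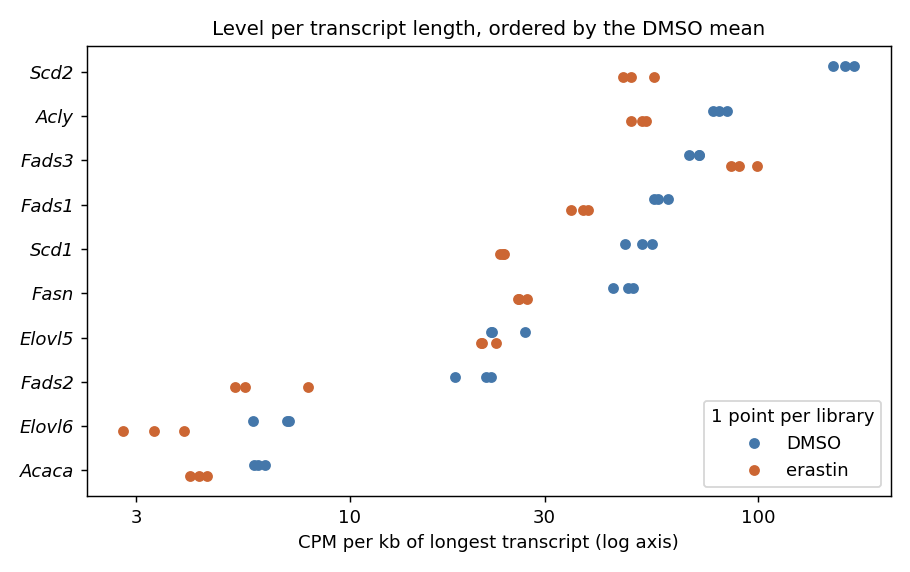
CPM per kb of the longest transcript for each gene on a log axis, 1 point per library, blue for DMSO and orange for erastin, ordered by the DMSO mean. Scd2 leads in DMSO at 163 and Fads3 in erastin libraries at 91.6, while the Elovl5 points of both groups overlap.

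The other enzymes of synthesis were lower more often than higher. Of 10 listed genes 9 were tested. Of these 4 were lower, 1 was higher and 4 did not pass, with a median log2 fold change of -0.57. That is 55.6% passing, against 43.0% of all genes tested (21.5% lower and 21.6% higher). The mitochondrial citrate carrier Slc25a1, which exports the citrate that Acly cleaves, fell from 98.7 ± 3.55 to 62.1 ± 4.21 CPM (± SD of 3 libraries; adjusted p = 1.96e-05 in edgeR). Acss2, which makes acetyl-CoA from acetate, fell from 20.98 ± 2.52 to 9.85 ± 0.147 CPM (adjusted p = 6.31e-05 in edgeR), and Aacs, which activates acetoacetate, from 118 ± 2.14 to 79.7 ± 6.48 CPM (adjusted p = 7.23e-05 in edgeR). The gene lower beside these was Mcat, a mitochondrial fatty acid synthesis enzyme (log2 fold change -0.94, edgeR adjusted p = 0.000318). The gene that rose was Me1, cytosolic malic enzyme, a source of NADPH and a known NRF2 target, from 70.7 ± 5.7 to 98.0 ± 7.79 CPM (± SD of 3 libraries; adjusted p = 0.000837 in edgeR). Mcat and Me1 were chosen after their values were seen.

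The remaining enzymes of elongation and desaturation were mixed. Of 16 listed genes 12 were tested, 7 were lower, 3 higher and 2 did not pass, with a median of -0.37. That is 83.3% passing, against 43.0% of all genes tested (21.5% lower and 21.6% higher). The share that was higher was thus near that of all genes. The elongation cycle needs a ketoreductase, a dehydratase and an enoyl reductase beside the elongase. The enoyl reductase gene Tecr fell from 94.2 ± 5.96 to 55.6 ± 1.86 CPM (± SD of 3 libraries, adjusted p = 5.87e-06 in edgeR). Hacd4, of the dehydratase family, fell from 34.7 ± 2.23 to 11.6 ± 3.93 CPM (adjusted p = 1e-05 in edgeR). Cyb5a, cytochrome b5, which passes electrons to the desaturases, fell from 59.4 ± 4.78 to 37.8 ± 0.267 CPM (adjusted p = 7.17e-05 in edgeR). The 3 genes that rose, named after their values were seen, were Elovl4, an elongase of very long chains (log2 fold change 1.54), the ketoreductase gene Hsd17b12 (0.45) and the dehydratase gene Hacd3 (0.27). Their edgeR adjusted p-values were 0.000291, 0.000216 and 0.0238; that of Hacd3 was 0.106, 0.0924 and 0.0554 without DMSO replicate 2, erastin replicate 1 and erastin replicate 2, 0.066 with upper-quartile factors, and 0.0768 after the offset for GC content and length. Elovl4 had 2.33 to 5.09 CPM in DMSO libraries.

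Regulators of lipid synthesis did not move one way. Of 15 listed genes 13 were tested, 4 were lower, 4 higher and 5 did not pass, with a median of 0.23. That is 61.5% passing, against 43.0% of all genes tested (21.5% lower and 21.6% higher). Srebf2, whose product mainly drives sterol genes, had 237, 218 and 250 CPM in DMSO and 122, 126 and 119 CPM in erastin libraries (log2 change -0.94 with SE 0.076, adjusted p = 2.07e-07 in edgeR). Srebf1, whose product mainly drives fatty acid genes, had a smaller change, from 123 ± 10.9 to 94.8 ± 7.04 CPM (± SD of 3 libraries; log2 change -0.37 with SE 0.091, adjusted p = 0.00393 in edgeR). Insig1, itself an SREBP target that holds SREBP in the endoplasmic reticulum, fell from 81.7 ± 12.0 to 34.2 ± 2.25 CPM (adjusted p = 4.9e-07 in edgeR), while Insig2 rose from 27.9 ± 3.74 to 56.6 ± 1.17 CPM (adjusted p = 3.78e-06 in edgeR). The SREBP escort Scap was also lower (log2 fold change -0.39, edgeR adjusted p = 0.00177). Higher were the AMP kinase subunit genes Prkaa2 (1.23) and Prkaa1 (0.45) and the SREBP protease gene Mbtps2 (0.54), with edgeR adjusted p-values of 0.00116, 0.00127 and 0.00539. The last pair did not pass after the offset for GC content and length (adjusted p = 0.0827 and 0.0706); these 4 genes from Scap on were chosen after their values were seen. Mid1ip1, an activator of acetyl-CoA carboxylase, stood at 40.0 ± 6.84 and 41.6 ± 1.89 CPM and did not pass (adjusted p = 0.761 in edgeR), with a log2 fold change of 0.053 that was -0.081 without DMSO replicate 3.

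Most genes of fatty acid oxidation were also lower. All 16 listed genes were tested. In edgeR 11 were lower, 0 were higher and 5 did not pass, with a median of -0.54. That is 68.8% passing, against 43.0% of all genes tested (21.5% lower and 21.6% higher). In DESeq2 and at an unadjusted p under 0.05, again 0 were higher. Genes of the carnitine palmitoyltransferase family had the smallest p-values of this list, and the products of Cpt1a and Cpt2 bring fatty acids into mitochondria. Cpt1a fell from 67.5 ± 4.59 to 34.5 ± 3.51 CPM, Cpt2 from 30.5 ± 2.95 to 14.9 ± 1.5 CPM and Cpt1c, a neuronal-type isoform, from 65.7 ± 2.88 to 41.7 ± 2.32 CPM (± SD of 3 libraries; adjusted p = 2.99e-06, 3.03e-05 and 4.64e-05 in edgeR).

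Uptake, binding and storage genes passed about as often as any gene. All 19 were tested, 4 were higher, 4 lower and 11 did not pass, which is 42.1% passing against 43.0% of all genes tested, with a median of 0.085. Hilpda, which inhibits lipolysis at lipid droplets, rose from 9.18 ± 2.64 to 29.0 ± 2.6 CPM and Dgat2, which forms triglyceride, from 7.52 ± 0.643 to 16.3 ± 2.81 CPM (± SD of 3 libraries; adjusted p = 6.87e-06 and 0.000244 in edgeR). Slc27a3, of the fatty acid transport protein family, fell from 31.1 ± 3.73 to 11.7 ± 0.532 CPM (adjusted p = 1.6e-06 in edgeR). The others that passed, named after their values were seen, were the triglyceride lipase Pnpla2 (log2 fold change 0.61) and the droplet coat gene Plin3 (0.30), both higher, and the binding protein Fabp5 (-1.01), Lpin1 (-0.61) and the monoglyceride lipase Mgll (-0.55), all lower. Plin3 did not pass without DMSO replicate 2 or erastin replicate 2 (adjusted p = 0.0836 and 0.0646 in edgeR).

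The sterol synthesis enzymes were lower with 1 exception. Many of their genes are known SREBP targets, as are most of the 10 genes. Whether SREBP has a part in these changes was not tested. Of 19 genes 18 were lower and 0 higher in edgeR. In DESeq2 and at an unadjusted p under 0.05, again 0 were higher. That is 94.7% passing, against 43.0% of all genes tested (21.5% lower and 21.6% higher). The median was -1.22, against -0.75 for the 10 genes, and the difference between the lists was not tested. Hmgcs1, the start of the mevalonate route, fell from 146 ± 6.25 to 36.9 ± 1.96 CPM and Mvk, of the same route, from 48.9 ± 2.86 to 12.1 ± 0.977 CPM (± SD of 3 libraries; adjusted p = 7.99e-10 and 1.23e-08 in edgeR). The sterol enzymes' range of -2.01 to -0.27 was wide. It held all 8 members that were lower, from -0.49 (Acaca) to -1.73 (Fads2), and also the 7 fibroblast markers that were lower. Ebp (-0.41, edgeR adjusted p = 0.163) did not pass.

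**Figure D5:**
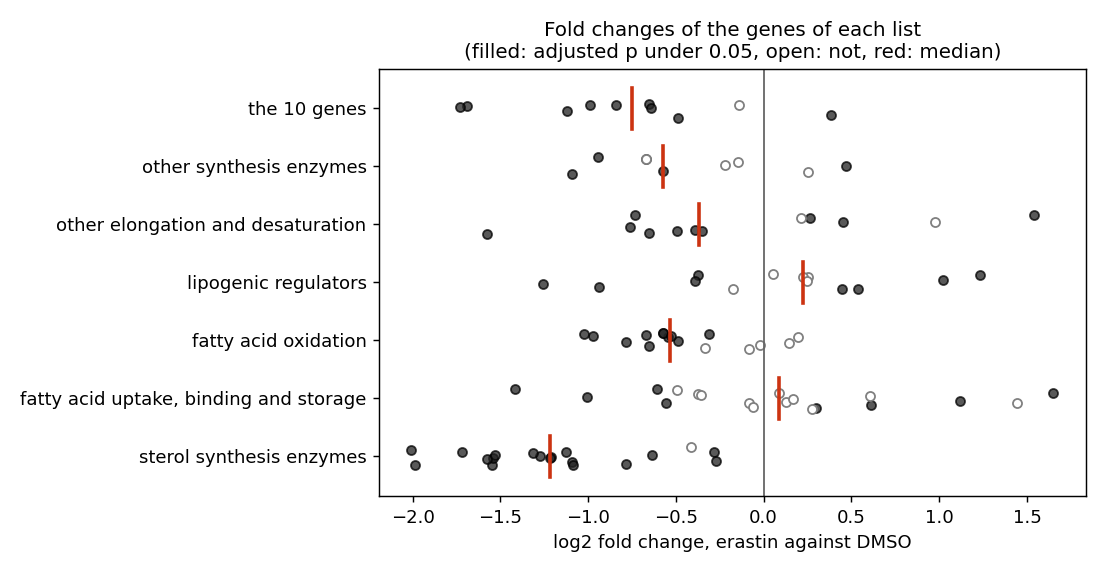
Log2 fold change of each tested gene of 7 lists, erastin against DMSO; filled points have an adjusted p-value under 0.05, open points do not, and the red line is the list median. The medians lie at -0.75 for the 10 genes, -0.54 for oxidation and -1.22 for sterol synthesis, and at 0.23 for regulators.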

How the data were processed

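Per the labels' protocols, ribosomal RNA was removed from total RNA and Ion Total RNA-seq libraries were sequenced on an Ion Proton. The deposited values are raw read counts per gene, 1 column for each of 6 libraries; the submitters' processing notes name HTSeq 0.9.1, SAMtools and mm10. The aligner, annotation release, strand setting and treatment of reads matching several genes are not given in the sources used here, so values of overlapping or near-identical genes are uncertain. Of 43346 identifiers 42462 matched GENCODE M21 (GRCm38) without their version, and 1 listed gene was matched through a RefSeq synonym. 0 columns were unused.

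edgeR 4.0.16 (R 4.3.3) was run with filterByExpr at its defaults (minimum count 10, total 15), TMM factors and the quasi-likelihood test of treatment over all 6 libraries, with Benjamini-Hochberg adjustment over 14000 genes. SEs came from the fitted weights and the posterior dispersion. The fit was tested on simulated counts with 200 changed genes and the same dispersion for all genes. Far more genes passed in the real data, so that run does not show how the fit performs on them. The alternatives were RLE and upper-quartile factors, total count only, no filter, 1 CPM in 3 libraries, a replicate block, DESeq2 1.42.0, an offset per library for GC content and length (mgcv 1.9.3), that offset with the block, thinning to the smallest library, and leaving out each library. The floor of 3 counts covers counting error only, since PCR copies are not independent molecules.

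The members and lists were chosen with earlier results of these data known. Named genes were all members, the 3 genes with the smallest p-values in every list, Srebf1, Srebf2, Insig1 and Mid1ip1, the 3 neighbouring genes with the smallest p-value, and Slc7a11 and Hmox1; 1 gene under this rule is not reported here. Replicates of a group differed by more than sampling noise (chi-square per degree of freedom 11 to 19.2), so each counted once. Protein identity was planned; coding sequences from GENCODE were compared instead.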

Additional observations from a re-analysis of the deposited data

How the results depend on the processing

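The direction and the call of each of the 10 members were the same in every alternative run, and their median log2 fold change ran from -0.80 to -0.68, with 8 members lower and 1 higher throughout. Equally numbered libraries were not paired measurably (correlations of their deviations from the group means 0.04, 0.0038 and -0.0055; 3 of 6 libraries correlated best with their own number); with the replicate block the count over all genes was 2971 higher and 2912 lower, against 3023 and 3004, and it changed no call of a member. The count of other synthesis genes that were higher was 2 in place of 1 after the offset for GC content and length, 2 with that offset and the replicate block, and 1 to 2 when 1 library was left out. The count of other elongation and desaturation genes that were higher ran from 2 to 5 when 1 library was left out, with 5 without DMSO replicate 3. Over the 16 alternatives the count of sterol genes that were lower ran from 16 to 18, and that of oxidation genes from 9 to 12. Regulators ran from 3 to 5 higher and from 4 to 5 lower, as did uptake, binding and storage genes. Mid1ip1 was -0.000811 with upper-quartile factors and ran from -0.081 to 0.152 when 1 library was left out, and Fn1 ran from -0.028 (without DMSO replicate 1) to 0.136. With the mean length of all transcripts in place of the longest, the ranks in DMSO were 3 for Acly, 9 for Acaca, 5 for Fasn, 6 for Scd1, 10 for Elovl6 and 2 for Fads3, and in erastin libraries 4 for Fasn, 5 for Scd2 and 3 for Fads1. The differences in the 5 ratios kept their sign without any 1 library and in differences of equally numbered libraries, where the smallest p is 0.25. The cause of these movements was not tested.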

Other observations

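The genes beside the 10 members on the chromosomes were looked up as well. Of 64 protein-coding genes that start within 200 kb of a member's start, 49 were tested, of which 18 were lower, 10 higher and 21 did not pass at the threshold of 0.05 in edgeR, and the median log2 change was -0.034. Over all genes tested 21.5% were lower and 21.6% higher. The share of neighbours that were higher was near this background, and the share that were lower was above it. The difference was not tested. The smallest p-values were those of Gclc near Elovl5, which encodes a subunit of the enzyme that starts glutathione synthesis and rose from 30.7 ± 1.94 to 95.3 ± 5.66 CPM, of Fkbp10 near Acly, a collagen chaperone gene that fell from 448 ± 18.1 to 257 ± 10.2 CPM, and of Mafg near Fasn, a partner of NRF2 that rose from 58.5 ± 1.3 to 108 ± 4.14 CPM (± SD of 3 libraries; adjusted p = 7.73e-09, 3.51e-07 and 7.8e-07 in edgeR). In this order they start 162829, 112303 and 190947 bases from the start of the member named with each.

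Around the Fads genes 7 neighbours were tested, 4 lower, 2 higher and 1 not passing. Of all genes tested 43.0% passed, 21.5% as lower and 21.6% as higher, and the difference from this share was not tested. Fth1, ferritin heavy chain, which starts 60971 bases from Fads3, was higher by 0.32 on the log2 scale, near the 0.38 of Fads3, and Dagla by 0.68. Rab3il1, which starts 39900 bases from Fads3, had a log2 fold change of -1.21, Fen1 of -0.98, Incenp of -0.97 and Tmem258 of -0.59 (adjusted p = 0.00398, 0.00705, 0.000578, 0.00215, 0.000958 and 0.0149 in this order in edgeR). Tmem258 did not pass without DMSO replicate 1 or erastin replicate 1 (adjusted p = 0.101 and 0.0745). Tada2a starts 72 bases from the annotated start of Acaca and went from 13.1 ± 1.85 to 18.3 ± 0.631 CPM (± SD of 3 libraries; log2 change 0.49, adjusted p = 0.0223 in edgeR), the opposite sign to Acaca; it did not pass without DMSO replicate 2, erastin replicate 1 or erastin replicate 3 (adjusted p = 0.0992, 0.064 and 0.055). All of these but Gclc, Fkbp10 and Mafg were chosen after their values were seen.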
